A study of Mus musculus with 5 samples.

Results

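A set of 1623 genomic sites had a peak with a score of at least 100 in the chromatin immunoprecipitation (ChIP-Seq) of NEUROD2 with antibody 2 and no peak with antibody 1 or antibody 3. Peaks of the 3 antibodies that shared at least 1 bp on GRCm38 (mm10) were merged into 12637 sites. Sites with peaks of antibody 2 only and a score of at least 100 were kept, and these were 24.6% of the 6598 antibody 2 only sites and 12.8% of all sites. Members were therefore chosen by their peaks and scores, so these values describe the set and were not tested. The members are called strong antibody 2 only sites here, after this score limit, and the 2088 sites with a peak of each antibody are called shared sites.

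The cortex was dissected and pooled from 5 wild-type littermate BALB/c pups of either sex at postnatal day 0, without treatment. The antibodies against NEUROD2, each with 1 library, were ab168932 (antibody 1), ab104430 (antibody 2) and ab109406 (antibody 3), and a library of a GFP antibody (sc-8334) served as the authors' control for peak calling. An input library was not analysed here. Whole cortex holds several cell types, the antibodies were not run in replicate, and the sources do not say if separate pools of mice were used. Antibody and library therefore cannot be told apart, and every interval given below covers counting error over sites of single libraries and not variation between mice.

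NEUROD2 is a basic helix-loop-helix (bHLH) transcription factor of differentiating excitatory neurons of the cortex. Such factors bind DNA as pairs, usually with an E protein such as TCF4, at the E-box CANNTG, and the NEUROD group is known for the forms CAGATG and CAGCTG. Many promoters of widely expressed genes lie in CpG islands, which are rich in G and C, keep their CG dinucleotides and often carry GC boxes bound by SP and KLF factors. The study used the antibodies together to find genomic targets of NEUROD2.

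The central 200 bp of 4 promoter members is printed to show the range of sequence among high scoring ones, the 3 highest at protein-coding promoters and the highest that was CpG-rich without an E-box. Bases are those of the RefSeq copy of GRCm38, a C57BL/6J genome, and not those of the BALB/c mice. Capitals mark CAGCTG and CAGATG, the latter read as CATCTG on the opposite strand.
Srrm4 promoter, chr5:116592027-116592226, plus strand: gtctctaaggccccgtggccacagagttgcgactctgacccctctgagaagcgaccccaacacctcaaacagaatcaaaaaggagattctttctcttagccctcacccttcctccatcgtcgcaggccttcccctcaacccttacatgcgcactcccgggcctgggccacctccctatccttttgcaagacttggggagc
Rufy1 promoter, chr11:50430847-50431046, plus strand: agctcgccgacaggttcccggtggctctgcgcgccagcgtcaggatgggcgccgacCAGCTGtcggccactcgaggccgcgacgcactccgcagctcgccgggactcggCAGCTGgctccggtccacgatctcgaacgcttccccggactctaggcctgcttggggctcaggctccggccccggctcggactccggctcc
Akr1b3 promoter, chr6:34317286-34317485, plus strand: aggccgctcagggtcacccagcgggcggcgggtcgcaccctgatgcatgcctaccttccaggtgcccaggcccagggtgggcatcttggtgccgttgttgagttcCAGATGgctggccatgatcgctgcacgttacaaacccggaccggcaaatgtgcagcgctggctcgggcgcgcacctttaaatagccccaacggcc
Chpf and Tmem198 promoter, chr1:75479436-75479635, plus strand: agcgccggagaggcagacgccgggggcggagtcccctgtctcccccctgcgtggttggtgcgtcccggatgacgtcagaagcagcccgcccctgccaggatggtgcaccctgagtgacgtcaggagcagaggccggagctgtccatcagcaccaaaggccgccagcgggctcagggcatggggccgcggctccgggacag
The Srrm4 window held 7 CG dinucleotides and no E-box. The Rufy1 window held 26 CG dinucleotides and 2 copies of CAGCTG, and the Akr1b3 window held 15 CG dinucleotides and 1 CAGATG. The window at the start sites of Chpf and Tmem198 held 17 CG dinucleotides, 2 GC boxes and no E-box. It also held TGACGTCA, the sequence of CREB and ATF factors.

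Outside promoters, the highest scoring member with CAGCTG lay between genes and the highest with CAGATG in an intron of Mical2, marked by capitals in the same way.
Intergenic site closest to Rtn4rl2, chr2:84865941-84866140, plus strand: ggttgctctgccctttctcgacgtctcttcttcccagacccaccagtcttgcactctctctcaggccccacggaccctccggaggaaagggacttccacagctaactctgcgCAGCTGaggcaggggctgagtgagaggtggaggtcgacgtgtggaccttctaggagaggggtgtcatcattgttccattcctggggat
Mical2 intron, chr7:112233575-112233774, plus strand: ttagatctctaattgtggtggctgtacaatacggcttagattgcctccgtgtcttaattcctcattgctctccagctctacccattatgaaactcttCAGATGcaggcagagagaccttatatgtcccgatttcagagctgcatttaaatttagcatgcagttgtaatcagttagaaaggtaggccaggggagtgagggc
The highest scoring member outside promoters with a CTCF core, a match to the binding sequence of the insulator protein CTCF with at most 1 mismatch, lay in an exon of Fzd7. In this line the capitals mark the core alone.
Fzd7 exon, chr1:59483883-59484082, plus strand: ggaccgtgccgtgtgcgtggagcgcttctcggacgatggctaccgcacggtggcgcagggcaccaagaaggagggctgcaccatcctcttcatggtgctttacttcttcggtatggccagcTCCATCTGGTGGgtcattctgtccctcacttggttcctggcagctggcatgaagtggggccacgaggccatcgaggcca
The Fzd7 core itself contained an E-box of the form CAGATG on the opposite strand. The other E-boxes of this window are in lower case.

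Scores of the members were moderate. The deposited score is minus 10 times the log10 of the p of MACS, the peak caller, and it ran from 100.01 to 452.26 among members with a median of 129.15. Of the sites with an antibody 2 score from 100 to 200, 48.9% (1471 of 3009) had a peak of antibody 2 only. This share was 13.2% (132 of 998) from 200 to 300, 2.77% (20 of 722) from 300 to 500, and 0 of 461 sites at 500 or more. The set thus held few of the strongest sites of its own antibody. Each member was a single peak, with a length from 181 to 1772 bp and a median of 451 bp. Just inside the limit were sites at the promoters of Aig1 (100.09) and Ppp1r16b (100.02) and an intronic site on chromosome 1 (100.01), and just outside it were sites at the promoters of Mindy4 (99.94), Gm26833 (99.9) and Ppp2r2a (99.88).

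By the rule, no member overlapped a peak of the other antibodies. The distance to such peaks was not compared with that of other sites. The gap to the closest peak of antibody 1 or 3 ran from 2 to 5758640 bp, with a median of 68869 bp. Such a peak lay within 500 bp of 4.44% of members (72 of 1623), within 1000 bp of 6.53% and within 10000 bp of 16.8%. Depth of the libraries is unknown from the deposited lists, which held 5202, 11196 and 3164 peaks for antibodies 1, 2 and 3. A lower number of reads with antibodies 1 and 3 and binding seen by antibody 2 alone cannot be told apart.

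More than any other location, the members covered promoters. A site was assigned to a promoter when its midpoint lay at most 1000 bp from a transcription start site (TSS) in GENCODE M21. Promoters held 901 of the 1623 members (55.5%, 95% Wilson interval 53.1 to 57.9), introns 345 (21.3%), intergenic sequence 312 (19.2%) and exons 65 (4.0%). Of the shared sites, 645 of 2088 (30.9%) lay at promoters, so the share of members was higher by 24.6 percentage points (95% Newcombe interval of the difference 21.5 to 27.7). The difference was 28.9 points (24.0 to 33.5) when both classes were limited to antibody 2 scores from 100 to 200. Sites of antibodies 1 and 2 only with an antibody 2 score of at least 100 had a promoter share of 31.1%, and antibody 2 only sites under 100 had 44.8%. The members exceeded the former by 24.4 points (20.8 to 27.8) and the latter by 10.7 points (7.90 to 13.5). When antibody 1 was left out of the merge, 2920 sites passed as antibody 2 only, and their promoter share exceeded that of the sites of antibodies 2 and 3 by 9.35 points (6.76 to 11.9).

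Promoter members sat close to the start site. Their midpoints lay from -991 to 980 bp of the closest TSS (negative values are upstream), with a median of 36 bp and quartiles at -72 and 167 bp. A distance of at most 100 bp was found for 388 of 901 (43.1%) and of at most 250 bp for 645 (71.6%). The member region itself overlapped a TSS in 669 of the 901. At 816 members a TSS of a protein-coding transcript lay in the window, and at 100 of these (12.3%) such start sites lay on both strands.

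**Figure D1:**
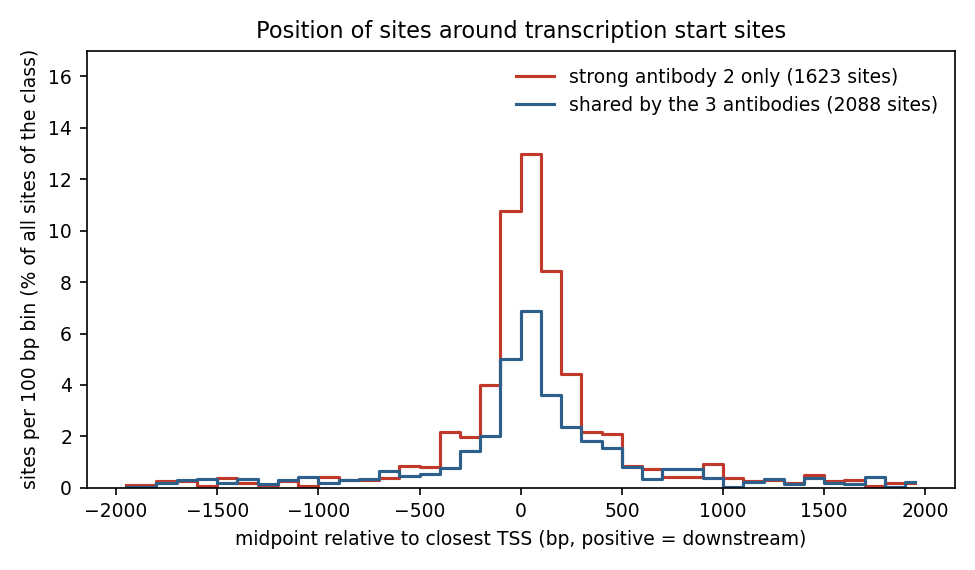
Position of site midpoints relative to the closest TSS in bins of 100 bp, as percent of all sites of each class; lines show the 1623 strong antibody 2 only sites and the 2088 shared sites. Both classes peak in the bin from 0 to 100 bp downstream, at 13.0% of the strong antibody 2 only sites and 6.90% of the shared sites.

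CpG content was high at these promoters. A centre was called CpG-rich when its 200 bp had a GC content of at least 50% and an observed over expected CpG ratio of at least 0.6. This held for 707 of 901 promoter members (78.5%), whose median GC content was 68% and median ratio 0.81. Across 54333 windows of the same length centred on the TSSs of all protein-coding genes, 47.0% were CpG-rich, with medians of 58.5% and 0.58. Shared promoter sites were CpG-rich in 411 of 645 cases (63.7%), and the members exceeded them by 14.7 points (10.2 to 19.3). This difference was 29.3 points (19.7 to 38.6) with antibody 2 scores from 100 to 200 in both classes, and 5.96 points (2.62 to 9.14) against antibody 2 only promoter sites under 100, of which 72.5% were CpG-rich.

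Members outside promoters had a different base composition. They were CpG-rich in 74 of 722 cases (10.2%), with a median GC content of 52% and a median ratio of 0.26. Windows 2000 bp from their edges were CpG-rich in 1.94% of cases and had a median GC content of 45.5%. The share of CpG-rich centres among these members was 4.98 points (2.61 to 7.62) above that of shared sites outside promoters (5.27%). A TSS was at most 5000 bp away for 36 of the 74 CpG-rich members and for 170 of all 722. Over all locations 48.1% of the members (45.7 to 50.6) and 23.3% of the shared sites had a CpG-rich centre, a difference of 24.8 points (21.7 to 27.8), which was 9.16 points (6.69 to 11.6) without antibody 1 in the merge.

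**Figure D2:**
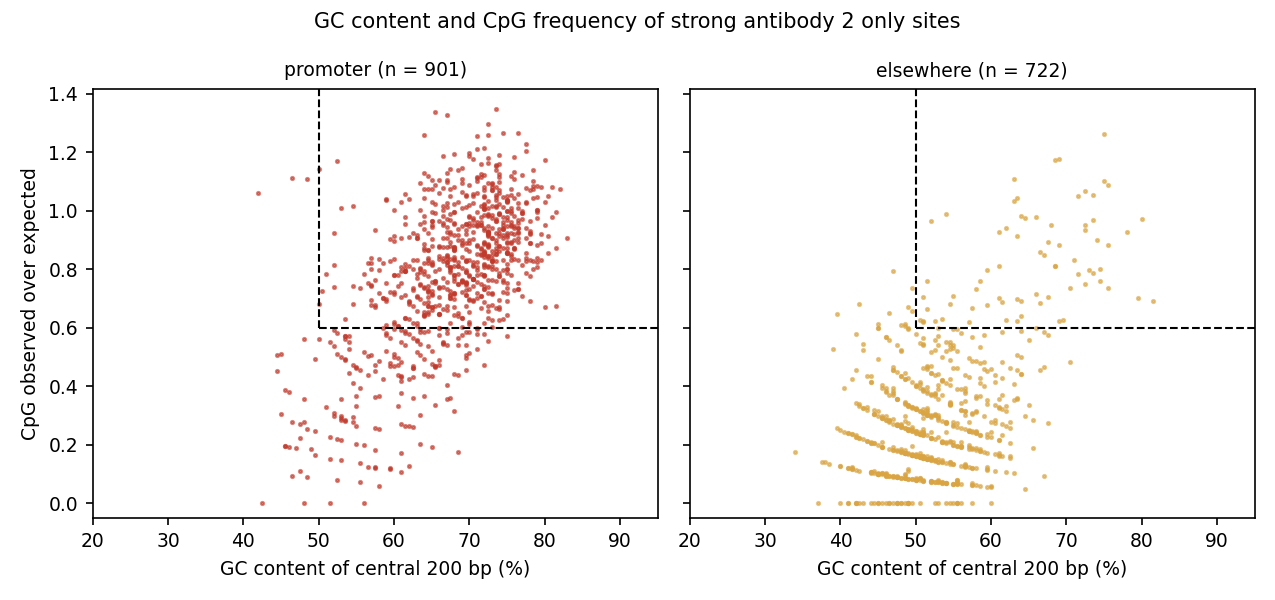
GC content (%) and observed over expected CpG of the central 200 bp of every strong antibody 2 only site, 1 point per site, at promoters (left) and elsewhere (right). The dashed corner marks the limits of 50% and 0.6 for a CpG-rich centre, which 707 of 901 promoter sites and 74 of 722 other sites passed.

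Promoter and CpG-rich shares were higher in the higher score classes of the members. From scores of 100 to 125 up to scores of 200 and above, the promoter share was 52.1% of 751 sites, 55.5% of 373 (125 to 150), 59.4% of 347 (150 to 200) and 63.8% of 152. The share with a CpG-rich centre was 43.8%, 44.5%, 54.5% and 63.8% in the same order. The share with CAGCTG or CAGATG was 64.0%, 62.2%, 56.5% and 55.3% over all locations. At promoters alone it showed no such order, with 45.0%, 46.4%, 40.8% and 45.4%, and outside promoters it was 84.7%, 81.9%, 79.4% and 72.7%. The Wilson intervals of neighbouring classes overlapped for these shares. At 200 and above the interval was 55.9 to 71.0 for both the promoter and the CpG-rich share, above the values of the lowest class. The values are a description because the score chose the members.

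E-boxes of the NEUROD type split the members by location. Outside promoters, 593 of 722 members (82.1%, 79.2 to 84.8) had CAGCTG or CAGATG in the central 200 bp, against 25.02% of windows 2000 bp from their edges. Shared sites outside promoters had either form in 83.4% of cases, and the difference of the members from them was -1.24 points (-4.72 to 2.07). By form, CAGCTG was at 37.4% of these members and 42.2% of these shared sites, a difference of -4.81 points (-9.11 to -0.42), and with antibody 2 scores from 100 to 200 in both classes this interval included 0 (-2.28 points, -8.73 to 4.07). The difference in CAGATG was 0.58 points (-3.72 to 4.80). At promoters, 400 of 901 members (44.4%, 41.2 to 47.7) had either form, against 20.9% of the windows at all protein-coding TSSs. Shared promoter sites had 62.2%, and the difference of the members from them was -17.8 points (-22.6 to -12.8). With antibody 2 scores from 100 to 200 in both classes, the difference at promoters was -24.4 points (-32.9 to -14.8), and without antibody 1 in the merge it was -8.83 points (-13.0 to -4.61). Against weaker sites of the same class the direction turned. Outside promoters 73.8% of the antibody 2 only sites under 100 had either form, and the members exceeded them by 8.36 points (4.99 to 11.5). Of the antibody 2 only promoter sites under 100, 39.5% had either form, and the members exceeded them by 4.93 points (1.12 to 8.76), and by 7.73 points (3.55 to 12) at CpG-rich promoters.

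At promoters with a CpG-rich centre, the members had the lower share of these E-box forms. There, 268 of 707 members (37.9%) and 223 of 411 shared sites (54.3%) had CAGCTG or CAGATG, a difference of -16.4 points (-22.3 to -10.3), and 13.9% of CpG-rich windows at all protein-coding TSSs did. At promoters that were not CpG-rich, the share was 68.0% of 194 members, 76.1% of 234 shared sites and 27.2% of the corresponding windows at all TSSs. The interval of this difference, -8.03 points (-16.5 to 0.47), included 0. With antibody 2 scores from 100 to 200, left with 184 members and 60 shared sites, it was -5.40 points (-17.3 to 8.47). For CAGCTG alone it was then -17.5 points (-31.1 to -3.08) and for CAGATG alone 4.09 points (-10.3 to 17.3). Whether the differences at CpG-rich and other promoters differ from each other was not tested. An E-box of any form was present in 66.5% of promoter members, 77.1% of shared promoter sites, 64.8% of antibody 2 only promoter sites under 100 and 53.4% of windows at all protein-coding TSSs. At CpG-rich promoters it was present in 61.2% of members and 41.0% of TSS windows.

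**Figure D3:**
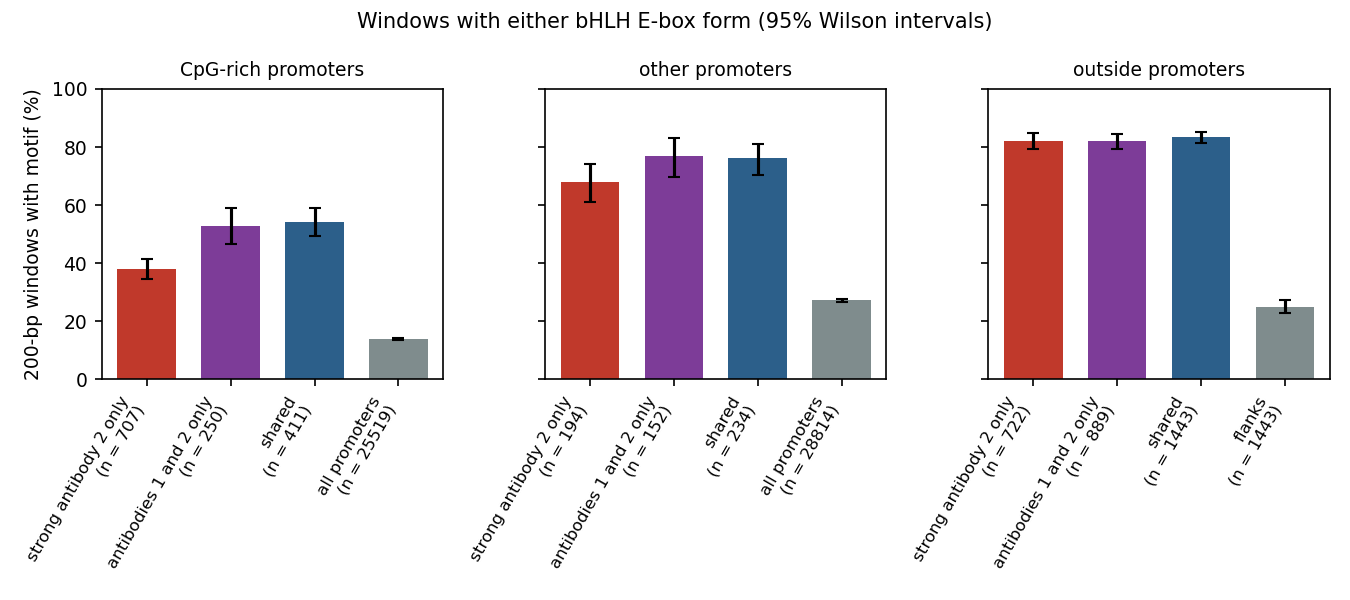
Percent of 200-bp windows with CAGCTG or CAGATG at CpG-rich promoters, other promoters and outside promoters, for strong antibody 2 only sites, sites of antibodies 1 and 2 only with an antibody 2 score of at least 100, shared sites and a background (windows at all protein-coding TSSs, or windows 2000 bp from the edges of the members). Bars show the share and whiskers the 95% Wilson interval; at CpG-rich promoters the strong antibody 2 only sites lie at 37.9%, between the background at 13.9% and the shared sites at 54.3%.

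Of the E-box forms, those of the NEUROD type stood highest over their background. CAGATG was found at 65.0% of members outside promoters and 16.4% of the windows beside them, and CAGCTG at 37.4% and 9.84%, ratios of 3.97 and 3.8. CACGTG, the form bound by the USF and MYC families, followed at 5.54% and 2.49%, a ratio of 2.22. At promoters, CAGATG was found at 21.5% of members and 9.88% of windows at all TSSs, and CAGCTG at 27.2% and 12.5%, ratios of 2.18 for both. CACCTG had a ratio of 1.41 there and CACGTG of 1.01. At CpG-rich promoters alone the forms stood apart, with CAGATG at 16.4% of members and 4.58% of TSS windows, CAGCTG at 24.2% and 9.79%, and CACGTG lower in members, at 5.37% and 7.39%. Over all promoters, the remaining forms had ratios from 0.46 to 0.89.

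Both forms concentrated at the middle of the sites. Outside promoters, their density was 8.25 and 8.2 per kb in the 50 bp before and after the midpoint of members, and 1.02 and 1.83 per kb in the bins farthest upstream and downstream, centred 975 bp away. At promoter members the density was 3.15 and 3.04 per kb at the midpoint and 1.24 and 1.13 per kb in the bins 975 bp away. Shared sites reached 10.1 per kb outside promoters and 5.98 per kb at promoters in the bin just before the midpoint.

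**Figure D4:**
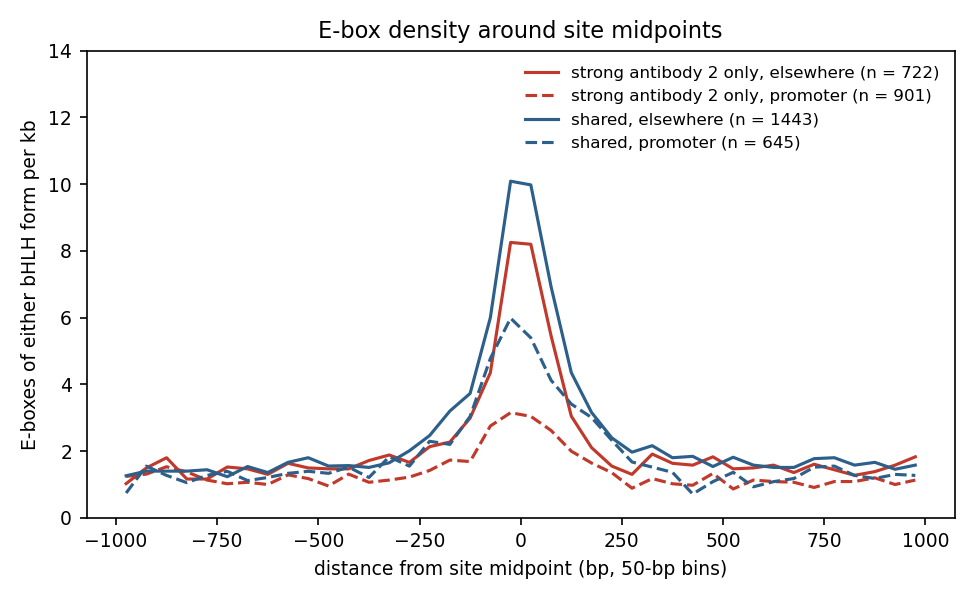
Density of CAGCTG and CAGATG on either strand per kb in 50-bp bins by distance from the midpoint of the sites; red lines are strong antibody 2 only sites, blue lines shared sites, solid lines sites outside promoters and dashed lines promoter sites. All 4 lines rise towards the midpoint, to 8.25 per kb for strong antibody 2 only sites outside promoters and 3.15 per kb for those at promoters.

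Besides E-boxes, 16 other motifs were searched on both strands. GC boxes (GGGCGG, bound by SP and KLF factors) were found in 48.8% of promoter members, 44.5% of shared promoter sites and 37.3% of windows at all protein-coding TSSs, and the difference from shared sites was 4.34 points (-0.71 to 9.34). With scores from 100 to 200 in both classes it was 15.8 points (6.21 to 24.4). Against sites of antibodies 1 and 2 only, the difference was 6.30 points (0.43 to 12.1). Against weaker antibody 2 only sites it was 3.90 points (0.046 to 7.76). At CpG-rich promoters alone, GC boxes were found in 56.2% of members, 58.9% of shared sites and 65.0% of TSS windows. The difference from shared sites was then -2.73 points (-8.66 to 3.30), and 3.40 points (-9.78 to 16.9) with scores from 100 to 200. It was 0.55 points (-6.51 to 7.73) from sites of antibodies 1 and 2 only. From weaker antibody 2 only sites it was 2.04 points (-2.36 to 6.40). The TATA box, searched as TATAAA, was found in 1.55% of promoter members and 6.78% of all TSS windows. CCAATCA, read by NFY, was found in 2.11% and 4.95%, and CCGGAAGT, read by ETS factors, in 2.44% and 3.81%. The E2F sequence TTCCCGCC was found in 3.00% of promoter members, 1.91% of all TSS windows and 1.40% of shared promoter sites, with a difference from the last of 1.60 points (0.056 to 3.08). This interval included 0 with scores from 100 to 200 in both classes (3.23 points, -0.15 to 4.70), as did those against sites of antibodies 1 and 2 only (-0.24 points, -2.64 to 1.65) and weaker antibody 2 only sites (0.35 points, -0.84 to 1.80). The TATA, NFY and ETS sequences were found in 2.17%, 3.10% and 2.17% of shared promoter sites and 1.66%, 2.20% and 2.38% of weaker antibody 2 only promoter sites. At CpG-rich promoters they were found in 0.99%, 1.56% and 2.97% of members and 2.26%, 5.77% and 7.05% of TSS windows. There the difference of members in NFY share was -2.09 points (-4.48 to -0.22) from shared sites (3.65%) and -3.24 points (-6.71 to -0.88) from sites of antibodies 1 and 2 only (4.8%). It was -5.66 points (-15.7 to -1.06) against the 55 shared sites with scores from 100 to 200, and the interval against weaker antibody 2 only sites included 0 (-0.67 points, -1.75 to 0.69). The E2F sequence was at 3.54% of members and 3.29% of TSS windows at CpG-rich promoters. TSS windows are centred on the start site and member windows on the peak midpoint. Of the other sequences, ACAAAG of SOX factors was found in 9.1% of promoter members and 10.6% of TSS windows, AAGATGGCG of YY1 in 2.0% and 1.76%, TGANTCA of AP-1 in 1.78% and 4.02%, and TAATTA of homeodomain proteins in 0.67% and 2.16%. At CpG-rich promoters the order of the first pair turned, with ACAAAG in 8.06% of members and 5.54% of TSS windows and AAGATGGCG in 2.40% and 3.44%, and TGANTCA was at 1.56% and 1.81%. For ACAAAG at promoters, the members exceeded weaker antibody 2 only sites by 2.15 points (0.10 to 4.43), and the interval against shared sites included 0 (2.12 points, -0.69 to 4.81). The sequences of NRF1 (CGCATGCG), CREB and ATF (TGACGTCA and TGACGTA), ZBTB33 (CTCGCGAG), ZNF143 (ACTACAATT) and RFX (GTTGCCATG) were each found in at most 1.11% of promoter members and 1.58% of TSS windows, and at CpG-rich promoters in at most 1.27% and 3.06%. These intervals were not adjusted for the number of motifs.

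CTCF cores were found in 97 of 722 members outside promoters (13.4%), against 2.36% of the windows beside them. Shared sites outside promoters had them in 9.36%, and the members exceeded these by 4.08 points (1.27 to 7.10). They exceeded sites of antibodies 1 and 2 only with an antibody 2 score of at least 100 by 5.11 points (2.07 to 8.26). With scores from 100 to 200 in members and shared sites the difference was 3.55 points (-0.84 to 7.50), an interval that included 0. At promoters, cores were found in 5.33% of members and 7.13% of shared sites (-1.80 points, -4.40 to 0.61). Over all locations they were found in 8.93% and 8.67% (0.27 points, -1.56 to 2.13). The core can overlap CAGATG, as in Fzd7 above. A core that held no E-box was found in 4.99% of the members outside promoters (3.62 to 6.83), 4.23% of the shared sites (3.30 to 5.39) and 1.94% of the windows, and a core without mismatch in 3.19%, 1.94% and 0.14%. For these stricter cores the intervals of members and shared sites overlapped.

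Members lay at promoters of 901 of the 21866 protein-coding genes with an annotated protein-coding TSS, which is 4.12% of them. Shared sites covered 579 genes, or 2.65%. A member and a shared site never overlap by construction, and 31 genes had both within their promoter windows, 3.44% of the genes with a member and 5.35% of the genes with a shared site. Genes with a CpG-rich promoter had a member in 817 of 12429 cases (6.57%) and the other 9437 genes in 84 cases (0.89%).

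By score, the 10 highest members at protein-coding promoters mixed neuronal and general genes. Srrm4, a splicing regulator of neurons, had 404.31 at a site 309 bp upstream of its TSS. Rufy1, which acts in endosomal transport, had 387.09, and Akr1b3, aldose reductase, had 373.34. Auts2, a gene of brain development, had 347.7 at a site of 1610 bp. The divergent pair Chpf, a chondroitin synthesis enzyme, and Tmem198 had 335.84. Then followed Dpy19l3, a mannosyltransferase (332.21), Pgrmc2, a membrane protein that binds haem (326.51), Jund, a subunit of AP-1 (325.33), Actn3 with Zdhhc24, an actin crosslinker and a palmitoyltransferase (316.56), and Ccdc88c, a regulator of Wnt signalling (311.43). Of these 10 sites, 9 were CpG-rich and 3 held CAGCTG or CAGATG.

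Outside protein-coding promoters, the highest score of all was 452.26 in the exon of Fzd8, a Wnt receptor, 1865 bp from its TSS, with a GC content of 73.5% and no E-box. An intronic site on chromosome 7 (409.5) had no E-box and 46% GC. The intergenic site printed above (393.87) lay 20436 bp from the closest TSS, that of Rtn4rl2. A site at the start of the antisense transcript Gm16308 had 376.6, and an intergenic site on chromosome 15 had 336.78 and 78% GC. The site in the intron of Mical2, an enzyme that oxidises actin, had 311.12. Of the 10 highest members of any location, 6 lay at promoters, 6 were CpG-rich and 5 held CAGCTG or CAGATG.

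Gene lists are described by counts against the 4.12% of all protein-coding genes, or the 6.57% of those with a CpG-rich promoter. The lists were not tested, and the lists were drawn up with earlier results of these data known. A site counted for every protein-coding gene with a TSS in its window, so some named sites also lay at other genes. Among these were the sites of Atp5c1 (with Kin), Ndufa13 (Tssk6 and Yjefn3), Ndufb11 (Rbm10), Mrpl40 (Hira), Mrps7 (Gga3) and Mrpl21 (Ighmbp2). Others included those of Eif2b4 (Snx17), Psmg2 (Cep76), Psma7 (Ss18l1), Rps18 (Vps52) and Lrrtm2 (Ctnna1). Of 13 lists of basic cell functions, 10 had shares above both values, but the Wilson interval lay wholly above 6.57% in 2 of them, the respiratory chain (8.37 to 23.3) and the translation factors (7.12 to 23.3). Subunits of the respiratory chain and ATP synthase had members at 12 of 84 genes (14.3%), all CpG-rich, and shared sites at 4. The highest were Cox5a, a subunit of cytochrome c oxidase (208.13), Atp5c1, of ATP synthase (167.2), and the complex I subunits Ndufa13 (163.8) and Ndufb11 (158.51). Translation factors had members at 9 of 68 genes (13.2%) and shared sites at 2, led by Eif4e3, a cap-binding protein (222.81), the elongation factor Eef1a1 (207.65), the helicase Eif4a1 (202.59) and Eif2b4, an exchange factor subunit (144.59). Mitochondrial ribosomal proteins had members at 8 of 75 (10.7%), among them Mrpl40 (252.39), Mrps7 (228.17), Mrpl21 (154.51) and Mrpl23 (150.26), and shared sites at 6. These promoters were mostly of high CpG content. In the translation list 95.6% of all genes had a CpG-rich promoter, and in the respiratory chain list 85.7%.

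Lists of RNA processing and protein turnover ran from 6.17% to 13.5%. Spliceosome and hnRNP proteins had members at 7 of 67 genes (10.4%) and a shared site at 1, and the highest were Hnrnpu (186.3), Hnrnpl (163.8), Srsf12 (130.98) and Prpf8 (119.81). Ubiquitin conjugating enzymes had members at 5 of 37 (13.5%), led by Ube2g1 (189.73), Ube2d1 (157.82), Ube2ql1 (155.18) and Ube2k (112.26), and ubiquitin specific proteases at 4 of 50 (8.0%), which were Usp35 (185.69), Usp1 (108.26), Usp46 (106.41) and Usp15 (106.11). Proteasome genes had 4 of 48 (8.33%), the subunits Psma7 (152.79), Psmd5 (148.8) and Psmd2 (120.5) and the assembly factor Psmg2 (177.78). Chaperones had 5 of 81 (6.17%), with Dnajb3 (267.64), Hsp90ab1 (241.56), Hspa9 (142.93) and Hspa12a (123.34) highest. Genes of DNA replication and the cell cycle had 5 of 48 (10.4%) and no shared site, with Cdk4 (201.64), Mcm2 (159.23), Rpa2 (154.08) and Rfc5 (143.53) highest.

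The remaining lists of general genes varied. Cytosolic ribosomal proteins had members at 4 of 84 genes (4.76%), Rps18 (189.62), Rpl5 (158.06), Rpl38 (115.62) and Rpl27 (110.62), although 85.7% of the list had a CpG-rich promoter. Aminoacyl-tRNA synthetases had 3 of 37 (8.11%), Ears2 (154.85) and the neighbours Hars and Hars2, which share 1 site (112.05). Mediator had 2 of 28 (7.14%), Med25 (136.84) and Med26 (104.91), and the RNA polymerases 1 of 28 (3.57%), Polr1d (156.23). Zinc finger genes named Zfp had 13 of 391 (3.32%), with Zfp619 (294.83), Zfp963 (245.14), Zfp866 (243.93) and Zfp553 (202.66) highest. Replication dependent histones had 1 of 67, Hist1h4i (110.62), and Hox genes 1 of 39, Hoxa7 (172.63). Histone methyltransferases and demethylases had 5 of 41 (12.2%), with Kmt2c (163.42), Setd5 (144.19), Kdm1a (142.13) and Kmt2b (124.47) highest.

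Neuronal genes were also among the members, and the short lists leave wide intervals. Of 23 bHLH factors of neuronal differentiation and their partners, 3 had a member (13.0%, 4.54 to 32.1), the repressor Bhlhe22 (205.06), the NEUROD partner Tcf4 (185.21) and the relative of NEUROD2, Neurod1 (144.11), and 5 had a shared site. The paper lists a site on Bhlhe22 among its targets shared by all antibodies and found NEUROD2 enriched at that gene by ChIP-qPCR. By the rule, the Bhlhe22 member is a different site, and the distance between these sites was not examined. Binding at Bhlhe22 is thus not limited to antibody 2. Of 18 factors of cortical layer identity, 2 had a member (11.1%, 3.10 to 32.8), Foxp2 (130.88) and Pou3f2 (121.84), and 3 a shared site. Axon guidance ligands and receptors had members at 6 of 69 (8.70%) and shared sites at 6, and the highest members were at Unc5a, a netrin receptor (212.71), Plxna3, a semaphorin co-receptor (167.39), Sema4c (139.2) and Robo2, a receptor of SLIT proteins (124.29). Of these 9 named sites, 4 were not CpG-rich (Tcf4, Foxp2, Pou3f2 and Plxna3), and all 4 held CAGCTG or CAGATG. The other 5 were CpG-rich, and of these Robo2 held either form and Bhlhe22, Neurod1, Unc5a and Sema4c held neither. Over all promoter members, either form was at 68.0% of the 194 that were not CpG-rich and 37.9% of the 707 that were. With so few named sites, which leave out the members at Sema5b and Plxna2, a difference from these shares cannot be told.

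Lists of excitability and synapse genes ranged from no member to 10.0%. Potassium channels had 4 of 92 (4.35%), Kcnk10 (246.03), Kcnb2 (162.41), Kcnh3 (123.63) and Kcnj3 (121.19), and voltage-gated sodium and calcium channels 1 of 40 (2.5%), Cacna1c (245.74). Glutamate receptors had 2 of 26 (7.69%), the kainate receptor Grik3 (190.77) and the NMDA receptor Grin2a (119.88). Synaptic vesicle genes had 2 of 30 (6.67%), Syp (190.79) and the glutamate transporter Slc17a7 (117.25), and neurexins with their partners 1 of 10 (10.0%), Lrrtm2 (141.34). No member lay at a promoter of the 21 GABA receptor genes, the 69 protocadherins, the 22 genes of the inhibitory interneuron lineage, the 17 glial marker genes, the 1092 olfactory receptors or the 57 keratin associated proteins. The upper limits of the Wilson intervals of these shares were 15.5%, 5.27%, 14.9%, 18.4%, 0.35% and 6.31%. Shared sites lay at 6 of the keratin associated proteins (10.5%, 4.91 to 21.1), at 1 protocadherin and at no gene of the other 4 lists. These counts cover promoters only. Members outside promoters lay in the bodies of the GABA receptor genes Gabrb1 (190.11), Gabbr2 (118.31) and Gabrg3 (110.02) and of Gad1 (125.65). Of the olfactory receptors, 0.092% had a CpG-rich promoter.

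**Figure D5:**
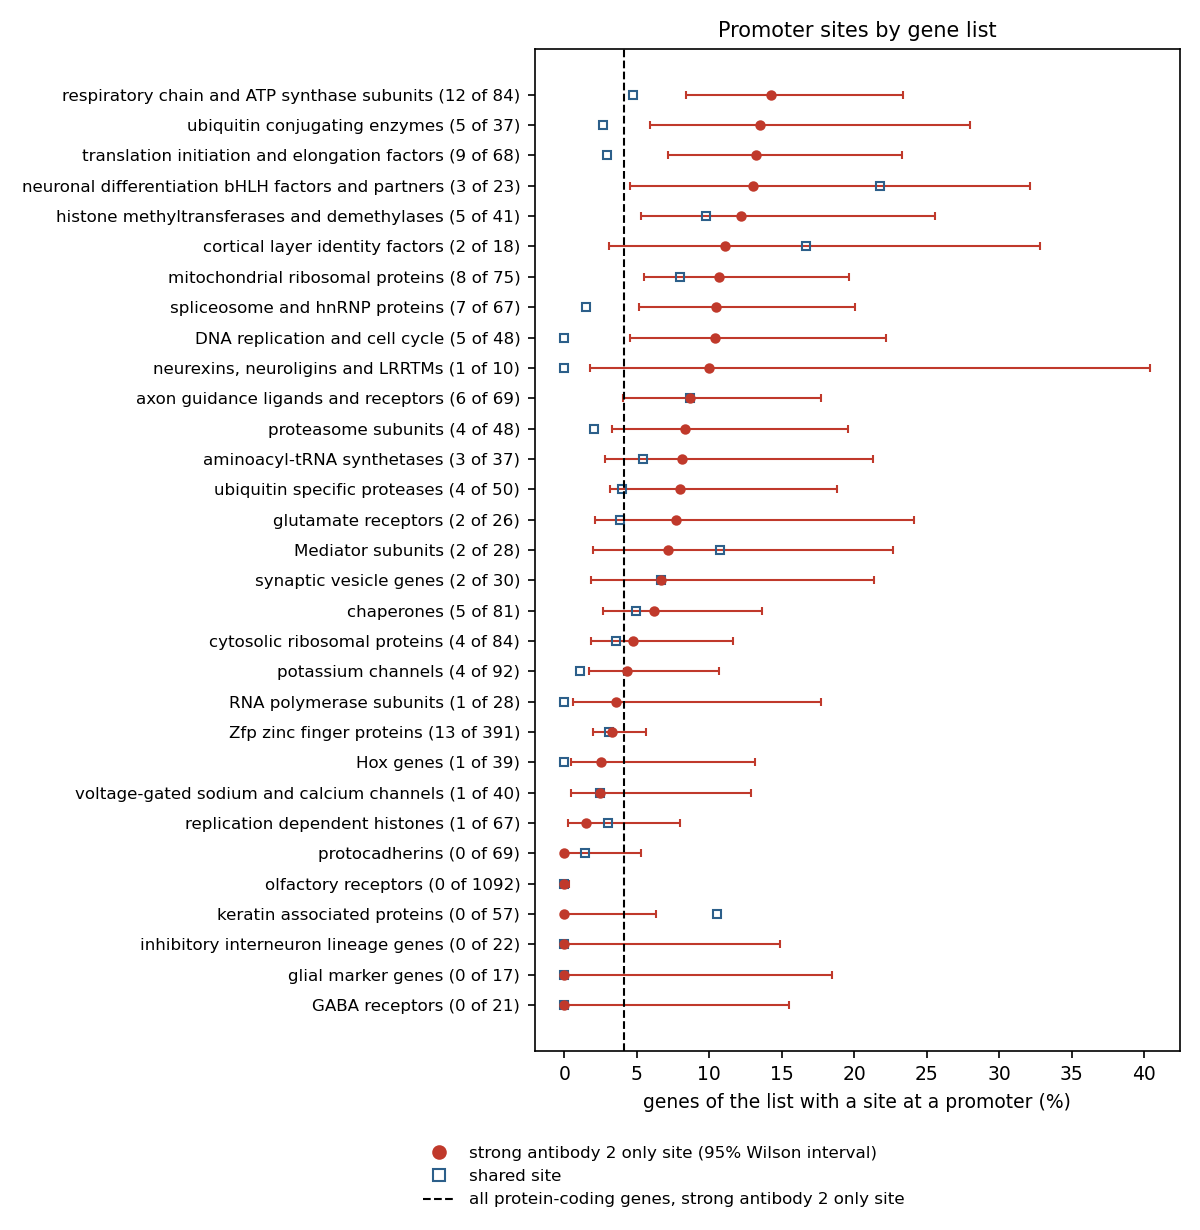
Percent of the genes of each of 31 lists with a strong antibody 2 only site (red points with 95% Wilson intervals) or a shared site (blue squares) within 1000 bp of a protein-coding TSS; the dashed line is the 4.12% of all protein-coding genes. For strong antibody 2 only sites, respiratory chain subunits lie highest at 14.3% and 6 lists lie at 0; for shared sites, neuronal bHLH factors lie highest at 21.7%.

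At 23 genes, 2 members lay at promoters of the same gene. They included several regulators of transcription, namely Tcf4 (185.21 and 155.22), Mycn, a bHLH oncoprotein (150.23 and 104.09), Usf2, a bHLH factor (131.83 and 103.28), Arid1b, a chromatin remodeller subunit (145.16 and 119.81), Kmt2c (163.42 and 107.11) and Stox2 (143.78 and 106.82). RNA-binding proteins were Elavl4 (140.77 and 116.18), Cirbp (131.85 and 108.61), Hnrnpl (163.8 and 118.98) and Hnrnpdl (106.23 and 104.71), the last sharing both sites with Enoph1. The kinase Gsk3b had 124.43 and 122.72, and Unc5a had 212.71 and 186.33. The other genes were Enc1, Foxred2, Klhl24, Ntan1, Sgip1, Slc29a4, Smim14, Usp35 and the pair Pigp and Ttc3, which share both sites, with scores from 100.57 to 185.69. Distances between the 2 sites varied. At Sgip1 on chromosome 4, 1 site ended at 102759577 and the next began at 102759579. Those of Unc5a, Hnrnpl and Arid1b also lay side by side. At Tcf4 on chromosome 18 the sites began at 69499071 and 69592634. Members in gene bodies outside promoters were spread thinly. The genes Gse1 and Tenm4, a teneurin of neuronal connection, held 4 each with highest scores of 108.83 and 158.93, and the gene model Gm20388, which spans Gse1 and other genes, held 12.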

How the data were processed

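ChIP-Seq peaks of NEUROD2 in P0 mouse cortex were analysed for 3 antibodies, with 1 library each. The authors mapped single-end reads with Bowtie to mm10 (GRCm38) and ran MACS on each antibody's reads with GFP antibody reads as the control. Each list was deposited with a score per peak, which is the −log10 of the MACS p-value times 10, at least 50, and the authors did not scale it between antibodies. Read depth is unknown from these lists. The authors' table of shared sites was not used.

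Peaks sharing at least 1 bp were merged, and sites were assigned by midpoint to GENCODE M21. Sequence was read from the RefSeq copy of GRCm38. Motifs were counted on both strands of the central 200 bp, and CTCF was searched as a 12-letter core with at most 1 mismatch. Shares carry 95% Wilson intervals and differences between classes of sites 95% Newcombe intervals, computed over sites and without p-values or adjustment. Whether classes differ across mice could not be tested with 1 library per antibody. Merging, motif counts and intervals were tested on simulated data. Python 3.11.15, pysam 0.24.0 and matplotlib 3.10.9 were used.

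Named sites were the 10 highest members, the 10 highest at protein-coding promoters, the 5 highest elsewhere, up to 4 genes per list, 3 sites on either side of the score limit, and genes with 2 or more members. Sequences were printed for the 3 highest members at protein-coding promoters, the highest CpG-rich one without an E-box, and the highest members elsewhere with either NEUROD-type E-box form or with a CTCF core, and for no other motif. Gse1, Tenm4 and Gm20388 were added after their values were seen. The members, lists and rules were chosen with earlier results of these data known. Alternatives concerned the score limit, the merging, the antibodies required, the promoter definition, the window, the CpG limits and the sites compared. The comparison limited to antibody 2 scores from 100 to 200 was added after seeing the data.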

Additional observations from a re-analysis of the deposited data

How the results depend on the processing

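Across 108 recomputed values, 81 kept their direction and their side of the interval or stayed within 1.5 times or the Wilson interval of the reported value. The differences in promoter and CpG-rich share stayed above 0 under all 13 alternatives each, from 9.35 to 32.9 and from 9.16 to 40.5 points. In 4 of the 13 the comparison was not with sites of all 3 antibodies, but with those of antibodies 2 and 3 (antibody 1 left out), of antibodies 1 and 2 (antibody 3 left out), of antibodies 1 and 2 only, or of antibody 2 only under 100. A score of at least 200 left 152 sites and 107 genes, with shares of 63.8% at promoters, 63.8% CpG-rich, 76.3% with an E-box and 55.3% with CAGCTG or CAGATG. A score of at least 150 left 499 sites and 328 genes, with 60.7% at promoters, 57.3% CpG-rich and 56.1% with CAGCTG or CAGATG. Without antibody 1 in the merge, so that sites of antibodies 1 and 2 counted as antibody 2 only, there were 2920 sites, of which 44.6% lay at promoters, 36.7% were CpG-rich, 83.9% had an E-box and 67.8% had CAGCTG or CAGATG. The promoter share was 49.8% within 500 bp of a TSS, 41.2% where the region overlapped a TSS and 50.3% with protein-coding transcripts only. The CpG-rich share was 44.0% at limits of 55% and 0.65. By construction, E-boxes were found less often in the central 100 bp (57.5%, and 41.5% for CAGCTG or CAGATG) and more often in whole regions (96.4% and 82.3%). Against antibody 2 only sites under 100, the differences were -1.14 points for E-boxes (-3.47 to 1.1) and 2.79 for CAGCTG or CAGATG (0.036 to 5.51). For the latter at promoters it was 4.93 (1.12 to 8.76). Over all locations, the lower E-box shares thus held against shared sites and sites of antibodies 1 and 2, and not against weaker sites of the same class. Outside promoters, the intervals against shared sites included 0 for E-boxes (-0.83 points, -3.07 to 1.16) and for CAGCTG or CAGATG (-1.24 points, -4.72 to 2.07). The same held there against sites of antibodies 1 and 2 only (-1.71 points, -4.01 to 0.47, and 0.13 points, -3.67 to 3.87). No paired analysis was possible because each antibody has 1 library. Leaving out replicates was not possible for the same reason. Unknown read depth limits every statement on the absence of a peak.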
